A study of Mus musculus with 6 samples.

Results

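The genes described are 36 genes of protein folding and stress signalling in the endoplasmic reticulum (ER), taken by symbol from the 35275 genes of a read-count table, and all 36 were found and had enough counts for a test. Whole kidneys of wild-type C57Bl/6 mice were sequenced as poly-A RNA 28 days after ischaemia-reperfusion injury, in which blood flow to the kidney is stopped and then restored. In 3 severe kidneys ischaemia had lasted 35 min (libraries 13, 14 and 15), and in 3 mild kidneys it had lasted 20 min (libraries 7, 8 and 9). Both groups were injured and share genotype and day, and uninjured kidneys were not analysed here, so what is compared is 35 with 20 min of ischaemia. The labels do not say whether each kidney came from its own mouse, so p-values measure the spread between these samples.

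The ER folds secreted and membrane proteins, and unfolded protein there starts the unfolded protein response through sensors in its membrane. ATF6 is cut and raises chaperone genes, IRE1 (Ern1) splices the Xbp1 mRNA into the form that raises secretory and degradation genes, and PERK (Eif2ak3) slows translation while ATF4 is made and raises genes for amino acid supply and cell death. Kidney tubule cells carry many transporters and receptors through the ER, and the response is known from acute ischaemic injury. The genes were sorted by these arms into 17 genes of ATF6 and folding, 13 of XBP1 and degradation and 6 of PERK and ATF4.

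Of the 36 genes, 0 passed an adjusted p of 0.05 over all genes (edgeR quasi-likelihood test with Benjamini-Hochberg adjustment over 14883 genes; 0.0134% of all genes passed). At an unadjusted p under 0.05 there was 1 higher, Asns, and 4 lower, Creld2, Hyou1, Xbp1 and Syvn1. That is 2.78% of the 36 genes higher, against 15.8% of all tested genes, and 11.1% lower, against 7.89%. In 11 genes (30.6%) every severe library lay below every mild library, where 16.1% of all tested genes did so (TMM-scaled values), and in 2 genes (5.56%) every severe library lay above, where 17.9% did so. At an adjusted threshold of 0.10 the count over the 36 genes was also 0, where 3.76% of all genes passed as higher and 0.376% as lower. These counts depend on the scaling: with library totals in place of TMM, 4 of the 36 genes were higher and 0 lower at an unadjusted p under 0.05 (edgeR), beside 3575 higher and 361 lower of all tested genes. With library totals, 0 of the 36 genes lay below the mild range and 5 (13.9%) above, against 6.63% and 29.2% of all tested genes. Without severe library 13, 13 genes (36.1%) lay below in TMM-scaled values, where 27.9% of all genes did, and 5.56% lay above, where 28.7% did. With any 1 of the other libraries left out, 33.3% to 38.9% of the 36 genes lay below, against 19% to 21% of all genes. Above lay 5.56% to 11.1%, against 20.2% to 22.5% of all genes. With every library in, the 11 below were Hspa5, Canx, P4hb, Creld2, Hyou1, Xbp1, Syvn1, Edem1, Sel1l, Derl1 and Derl2, and the 2 above were Asns and Ppp1r15a.

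The differences were small apart from Asns and the sparsely counted Derl3. The median log2 fold change of severe over mild was -0.096 over the ATF6 and folding genes, -0.16 over the XBP1 and degradation genes and 0.11 over the PERK and ATF4 genes, beside 0.00019 over all tested genes. The values below 0 numbered 16 of 17, 11 of 13 and 1 of 6 in that order, beside 7433 of all 14883 tested genes. The 16 include Pdia4 (-0.001), Pdia3 (-0.0024), Pdia6 (-0.0042) and Hsp90b1 (-0.0091). With upper-quartile scaling, where the median of all genes was 0.033, the counts were 11 of 17, 9 of 13 and 1 of 6. Without severe library 13 they were 12 of 17, 9 of 13 and 0 of 6. Scaling by library totals moved the median of all genes to 0.17 and turned the first and second medians to 0.069 and 0.0072, which relative to all genes were -0.0999 and -0.16. The 36 genes together took 5748, 5567 and 5993 CPM (counts scaled to TMM library sizes) in severe libraries 13, 14 and 15, against 6103, 6314 and 6202 CPM in mild libraries 7, 8 and 9. Every severe sum was below every mild sum with this scaling, but per library total the sums were 5590.0, 6492 and 6253 in severe libraries 13, 14 and 15, against 5763, 5947 and 5856 in mild libraries 7, 8 and 9, which overlap. All CPM values and ranges that follow are TMM-scaled, so each difference is relative to the bulk of genes in the same kidney.

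**Figure D1:**
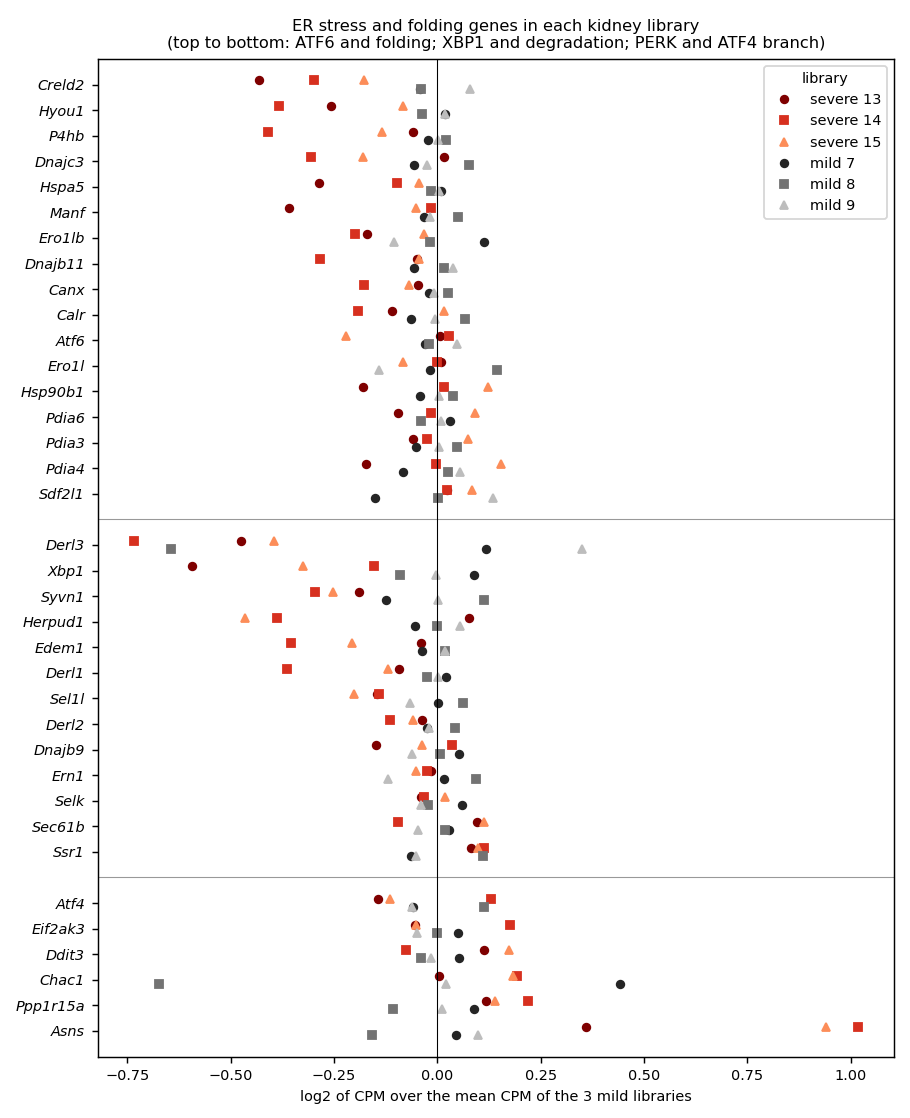
Each point is 1 gene in 1 library, as log2 of its CPM over the mean CPM of the 3 mild libraries, with severe libraries in red tones just above mild libraries in grey tones and the genes grouped by arm. All 3 severe points lie left of the mild points in 5 of the 17 ATF6 and folding genes and 6 of the 13 XBP1 and degradation genes, and right of them in Asns and Ppp1r15a.

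Libraries held 15240491 to 17730967 gene counts. In whole-kidney RNA, fewer cells of a type and less RNA per cell cannot be told apart. Markers of kidney epithelium were present in every library: 12 tubule and podocyte genes summed to 9684 to 17513 CPM in severe and 19279.7 to 20483 CPM in mild libraries, and 9 of 12 lay below the mild range in every severe library. Matrix and fibroblast markers summed to 1491 to 4884 CPM in severe and 683 to 866 CPM in mild libraries (10 of 10 above the mild range), macrophage markers to 583 to 1129 CPM in severe and 308 to 373 CPM in mild libraries (9 of 10 above), and injured tubule markers to 3078 to 10523 CPM in severe and 2274 to 2997 CPM in mild libraries (4 of 9 above). Neutrophil markers summed to 5.82 to 11.5 CPM in severe and 2.06 to 4.07 CPM in mild libraries, with Mpo at 0 counts throughout. Only 1 of these 7 markers, Csf3r, had enough counts for a test, and it made up most of the sums. Csf3r stood at 6.07 ± 2.37 CPM in severe and 2.75 ± 1.08 CPM in mild kidneys. Severe library 14 had the lowest tubule sum and the highest sum of each other class. The part of cell composition in the values that follow was not tested.

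Part of the folding genes hold a known element near their start. The ER stress response element (ERSE) is bound by ATF6 together with the CCAAT factor NF-Y, and its letters are CCAAT, then any 9 bases, then CCACG. It was searched on both strands of RefSeq windows from 250 bases before to 50 bases after a gene's start in GRCm38.p6, which held 32 of the 36 genes; Manf, Hyou1, Atf6 and Derl1 were not among them. An ERSE was found in 10 of the 32 genes (31.2%), against 39 of all 32851 windows (0.119%). Of these 10, 8 are ATF6 and folding genes, 2 are XBP1 and degradation genes, and 0 of the 6 PERK and ATF4 genes had one. The 8 are of 14 ATF6 and folding genes with a window; Pdia3, Pdia4, P4hb, Sdf2l1 and Ero1l had neither an ERSE nor the shorter form described next. The genes were grouped as targets of ATF6, whose known targets define the ERSE, so these shares are not independent of the choice of genes. The sites are printed because they mark which members carry the element, in the direction of the motif with its fixed letters in capitals. Hsp90b1 has 2 sites.
Hspa5, chr2:34772025-34772043, plus strand: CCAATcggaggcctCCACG
Hsp90b1, chr10:86705638-86705656, minus strand: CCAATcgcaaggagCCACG
Hsp90b1, chr10:86705533-86705551, plus strand: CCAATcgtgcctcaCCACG
Calr, chr8:84847075-84847093, plus strand: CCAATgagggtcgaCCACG
Canx, chr11:50325800-50325818, minus strand: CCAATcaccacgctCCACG
Pdia6, chr12:17266491-17266509, plus strand: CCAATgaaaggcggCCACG
Dnajc3, chr14:118937827-118937845, plus strand: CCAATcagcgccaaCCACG
Creld2, chr15:88819520-88819538, minus strand: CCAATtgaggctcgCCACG
Ero1lb, chr13:12565682-12565700, minus strand: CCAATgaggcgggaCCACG
Syvn1, chr19:6046532-6046550, plus strand: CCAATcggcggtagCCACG
Derl3, chr10:75893242-75893260, minus strand: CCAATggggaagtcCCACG

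The shorter ERSE-II, ATTGG, any 1 base and CCACG, was found in 2 of the 32 genes and in 12 of all windows (0.0365%). These sites did not overlap an ERSE and have the fixed letters in capitals.
Dnajb11, chr16:22857852-22857862, plus strand: ATTGGcCCACG
Herpud1, chr8:94386377-94386387, plus strand: ATTGGgCCACG

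Elements of the other arms were searched in the same windows. The XBP1 element UPRE, searched as TGACGTGG, was found in 0 of the 32 and in 0.676% of all windows. The C/EBP-ATF element CARE, a site of ATF4, was searched as TGATGNAA and found in 3 (Asns, Chac1 and Herpud1), which is 9.38%, against 3.97% of all windows. The cyclic AMP element CRE, TGACGTCA, was found in Ppp1r15a, 1 of the 32, against 1.79% of all windows. No 2 sites of different motifs overlapped in these genes. A match is a match of letters, and no match says only that these letters are not in this window.

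The 150 bases before the start are shown for Hspa5, the classical ERSE gene, for Creld2 and Syvn1, the ERSE genes with the smallest p-values of their arms, and for Asns, the gene with the largest difference. Capitals mark the fixed letters of an ERSE in the first 3 genes and of the CARE in Asns, on the strand of the gene. The RefSeq start of Hspa5 and of Asns lies inside the gene as the count table spans it, so the ERSE of Hspa5 and the CARE of Asns lie before the RefSeq start but within the table's span.
Hspa5, chr2:34771940-34772089, plus strand: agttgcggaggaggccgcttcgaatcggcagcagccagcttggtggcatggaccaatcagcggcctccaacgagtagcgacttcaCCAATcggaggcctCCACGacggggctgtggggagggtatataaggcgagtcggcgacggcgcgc
Creld2, chr15:88819496-88819645, plus strand: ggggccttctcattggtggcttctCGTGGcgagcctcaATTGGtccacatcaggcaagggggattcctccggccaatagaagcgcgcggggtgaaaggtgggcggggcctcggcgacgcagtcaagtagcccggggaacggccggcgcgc
Syvn1, chr19:6046426-6046575, plus strand: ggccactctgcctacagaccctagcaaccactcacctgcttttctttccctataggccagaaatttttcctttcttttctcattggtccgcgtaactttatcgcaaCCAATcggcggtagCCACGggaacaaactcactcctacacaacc
Asns, chr6:7693210-7693359, minus strand: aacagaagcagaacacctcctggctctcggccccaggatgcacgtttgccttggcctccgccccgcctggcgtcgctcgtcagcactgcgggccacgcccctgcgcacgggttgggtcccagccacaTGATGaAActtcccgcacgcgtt

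In these stretches the ERSE lies at -65 to -47 in Hspa5, at -126 to -108 in Creld2, on the opposite strand, and at -44 to -26 in Syvn1, and the CARE at -23 to -16 in Asns, counted from the start site. The log2 fold changes of the 10 ERSE genes lay between -0.52 (Derl3) and -0.0042 (Pdia6), with a median of -0.14. All 10 were below 0, where 7433 of all 14883 tested genes were, and in 4 of the 10 every severe library was below the mild range. The 20 genes with a window and neither element lay between -0.35 (Xbp1) and 0.802 (Asns), with a median of -0.0096, and 12 were below 0. Of these 20, 5 lay below the mild range in every severe library and 2 lay above it. Over all tested genes these shares were 16.1% and 17.9%. The 20 include all 6 PERK and ATF4 genes, of which 5 were above 0, so the sets differ in arm as well as in element. The 2 ERSE-II genes and the 4 genes without a window were all below 0. Under library-total scaling, which moved all genes up by 0.17, the values of Hspa5, Hsp90b1, Calr, Canx, Pdia6, Dnajc3 and Ero1lb turned positive. Those of Pdia6 and Hsp90b1 also turned positive with upper-quartile scaling and with limma-voom quality weights. They did so in 4 (Pdia6) and 3 (Hsp90b1) of the fits with 1 library left out. No test was made between these sets.

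**Figure D2:**
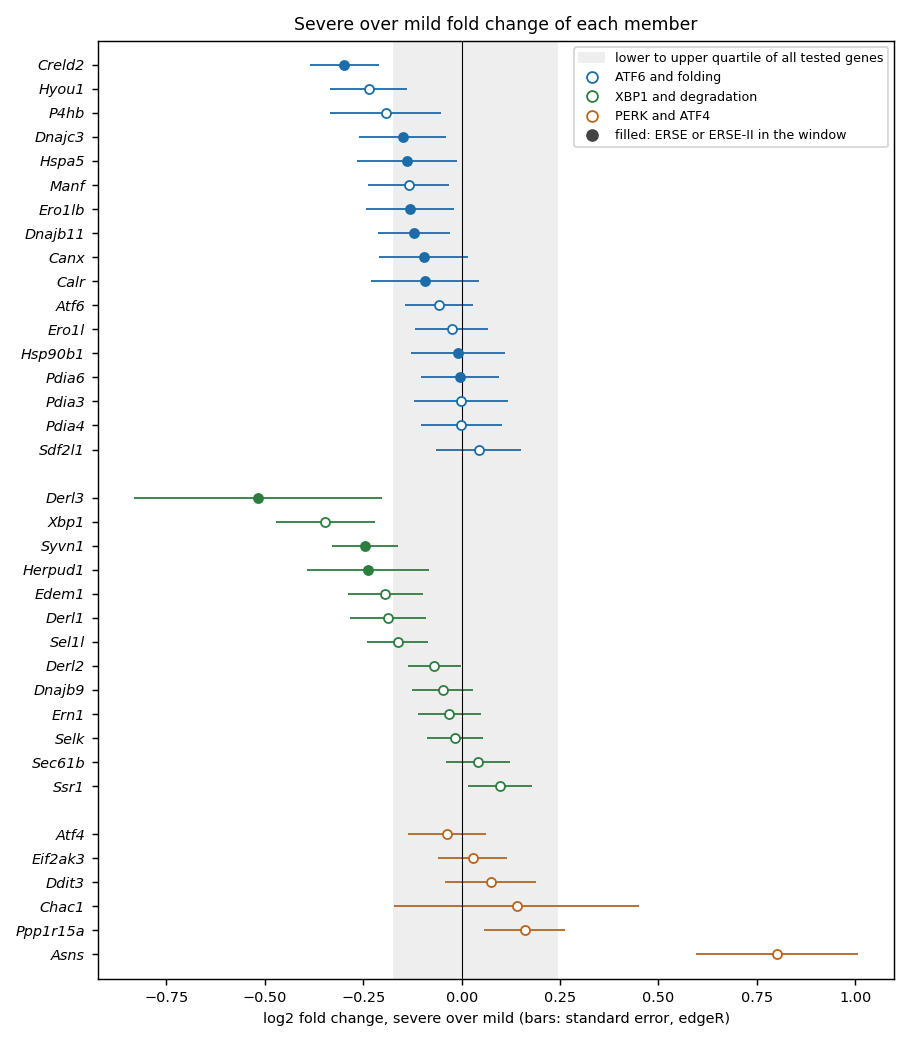
The log2 fold change of severe over mild kidneys with its standard error (edgeR) for each gene, coloured by arm, filled where the window held an ERSE or ERSE-II. The grey band runs from the lower to the upper quartile of all tested genes, -0.17 to 0.24, and Asns, Creld2, Derl3, Xbp1, Syvn1, Hyou1, Herpud1, Edem1, P4hb and Derl1 have their value outside it.

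Creld2 had the smallest p of the ATF6 and folding genes. It encodes an ER protein induced by ER stress (chromosome 15, 88819646 to 88826681, plus strand, mm10 as in the table). It stood at 33.6, 36.9 and 40.1 CPM in the severe libraries 13, 14 and 15, against 43.97, 44.1 and 47.8 CPM in the mild libraries 7, 8 and 9. The groups did not overlap, with severe library 13 lowest, and the log2 fold change was -0.298 ± 0.088 (SE, n = 3 each; adjusted p = 0.123, edgeR).

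Hyou1 encodes the large Hsp70-like protein GRP170, which exchanges the nucleotide of BiP. It stood at 127, 117 and 144 CPM in the severe libraries 13, 14 and 15, against 154, 148 and 154 CPM in the mild libraries 7, 8 and 9. All 3 severe libraries were below the mild range, library 14 lowest, at a log2 fold change of -0.24 ± 0.098 (adjusted p = 0.201, edgeR). P4hb encodes protein disulfide isomerase, which is also the beta subunit of the collagen prolyl 4-hydroxylases. It stood at 672, 527 and 637 CPM in the severe libraries 13, 14 and 15, against 688, 709.5 and 701 CPM in the mild libraries 7, 8 and 9. Library 14 was far below the rest, and the other 2 severe libraries were just under the mild range, at a log2 fold change of -0.19 ± 0.14 (adjusted p = 0.404, edgeR), and of -0.096 without library 14. Dnajc3 encodes p58IPK, a J-domain partner of BiP. It stood at 210.2, 168 and 183 CPM in the severe libraries 13, 14 and 15, against 199.9, 219 and 204 CPM in the mild libraries 7, 8 and 9. The groups overlapped because library 13 lay within the mild range, and the log2 fold change of -0.15 ± 0.11 (adjusted p = 0.411, edgeR) was -0.23 without that library.

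BiP itself, the main Hsp70 of the ER lumen and the gene most often read as the sign of ER stress, is encoded by Hspa5 (chromosome 2, 34771970 to 34776531, plus strand). Hspa5 stood at 518, 590.4 and 613 CPM in the severe libraries 13, 14 and 15, against 636, 625 and 634 CPM in the mild libraries 7, 8 and 9. Every severe library was below the mild range, library 13 by most, and the severe libraries spanned more than the mild ones, so that the log2 fold change was -0.14 ± 0.13 (adjusted p = 0.508, edgeR). The Hsp90 of the ER, Hsp90b1 (GRP94), stood at 301, 344 and 371 CPM in the severe libraries 13, 14 and 15, against 331, 349.6 and 342 CPM in the mild libraries 7, 8 and 9. Its groups overlapped, library 13 being the lowest and library 15 the highest of all 6, with a log2 fold change of -0.0091 ± 0.12.

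The lectin chaperones hold glycoproteins during folding. Calreticulin (Calr) was the most abundant of the 36 genes per length, at 391 CPM per kb in severe and 417 CPM per kb in mild kidneys (CPM divided by the gene length given in the table), and stood at a log2 fold change of -0.092 ± 0.14 with overlapping groups. Calnexin (Canx) stood at 477, 435 and 469.6 CPM in the severe libraries 13, 14 and 15, against 486, 501 and 489.6 CPM in the mild libraries 7, 8 and 9. Its severe libraries were all below the mild range, by a small step, at a log2 fold change of -0.096 ± 0.11 (adjusted p = 0.61, edgeR). The disulfide isomerases Pdia3, a partner of both lectins, Pdia4 and Pdia6 were the genes closest to 0, with log2 fold changes of -0.0024 ± 0.12, -0.001 ± 0.103 and -0.0042 ± 0.099. All 3 overlapped between groups, each with severe library 13 lowest and severe library 15 highest of the severe libraries.

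The remaining folding genes had overlapping groups. Manf, a BiP-binding and secreted stress protein, stood at -0.13 ± 0.102, and its counts are uncertain because its span in the table overlaps Vprbp and Rbm15b. The BiP partner Dnajb11 (ERdj3) stood at -0.12 ± 0.092 and Sdf2l1, which acts with it, at 0.043 ± 0.11, which turned to -0.022 without mild library 7. The oxidases that recharge the isomerases, Ero1l and Ero1lb, stood at -0.025 ± 0.093 and -0.13 ± 0.11. The sensor Atf6 stood at 62.3, 63.3 and 53.2 CPM in the severe libraries 13, 14 and 15, against 60.8, 61.2 and 64.1 CPM in the mild libraries 7, 8 and 9. Severe library 15 was lowest and the other 2 severe libraries were within the mild range, at a log2 fold change of -0.057 ± 0.087 (adjusted p = 0.696, edgeR).

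The 3 severe kidneys did not order the folding genes in 1 way. Of the 17 genes, 7 were lowest of the severe libraries in library 13 (Hspa5, Hsp90b1, Pdia3, Pdia4, Pdia6, Creld2 and Manf), 8 in library 14 (Calr, Canx, P4hb, Dnajb11, Dnajc3, Sdf2l1, Hyou1 and Ero1lb) and 2 in library 15 (Ero1l and Atf6), while 11 were highest in library 15. Library 13 had the lowest and library 14 the highest sum of matrix, macrophage and injured tubule markers among severe libraries. Over all 36 genes the SD between libraries, on the log2 scale, had a median of 0.13 in severe and 0.056 in mild kidneys, and 25 of 36 (69.4%) had the larger SD in severe kidneys, against 73% of all tested genes.

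Xbp1 and Syvn1 had the smallest p-values of the XBP1 and degradation genes. Xbp1 encodes the transcription factor whose mRNA IRE1 splices (chromosome 11, 5520659 to 5525893, plus strand). Xbp1 stood at 119, 161 and 143 CPM in the severe libraries 13, 14 and 15, against 190.0, 168 and 178 CPM in the mild libraries 7, 8 and 9. All severe libraries were below the mild range, library 13 lowest and library 14 closest to the mild kidneys, at a log2 fold change of -0.35 ± 0.13 (adjusted p = 0.166, edgeR). Without severe library 14 Xbp1 was -0.45 and passed (adjusted p = 0.0267, edgeR; 0.931% of all genes were called lower and 2.4% higher there). Counts per gene do not tell the spliced from the unspliced Xbp1 mRNA. The sensor Ern1 stood at 41.6, 41.4 and 40.6 CPM in the severe libraries 13, 14 and 15, against 42.6, 44.97 and 38.8 CPM in the mild libraries 7, 8 and 9. Its severe libraries all lay within the mild range (log2 fold change -0.031 ± 0.079, adjusted p = 0.823, edgeR).

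The HRD1 complex, which marks misfolded ER proteins for the proteasome, had its ligase and its partner below the mild range. The ligase gene Syvn1 stood at 58.4, 54.2 and 55.95 CPM in the severe libraries 13, 14 and 15, against 61.1, 71.98 and 66.7 CPM in the mild libraries 7, 8 and 9. All severe libraries were lower, at a log2 fold change of -0.25 ± 0.083 (adjusted p = 0.149, edgeR); its end overlaps Mrpl49 on the other strand by 83 bases, and the strand setting of the counting is not given. The partner gene Sel1l stood at 118, 118 and 113 CPM in the severe libraries 13, 14 and 15, against 130.5, 136 and 125 CPM in the mild libraries 7, 8 and 9. The groups did not overlap and the severe libraries were close to each other, at a log2 fold change of -0.16 ± 0.078 (adjusted p = 0.239, edgeR).

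Edem1, which speeds the degradation of misfolded glycoproteins, stood at 102, 82.2 and 91.1 CPM in the severe libraries 13, 14 and 15, against 102, 107 and 106 CPM in the mild libraries 7, 8 and 9. Library 13 lay just under the lowest mild library and library 14 was lowest, at a log2 fold change of -0.19 ± 0.095 (adjusted p = 0.247, edgeR). Herpud1, a scaffold of the HRD1 complex, stood at 283, 205 and 195 CPM in the severe libraries 13, 14 and 15, against 259, 268 and 279 CPM in the mild libraries 7, 8 and 9. Library 13 was the highest of all 6 and libraries 14 and 15 the lowest, so the groups overlapped (log2 fold change -0.24 ± 0.15, adjusted p = 0.35, edgeR). Without severe library 13 Herpud1 stood at -0.42 and passed (adjusted p = 0.0293, edgeR; 7.74% of all genes were called lower there).

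Among the derlins, which help to move proteins out of the ER, Derl1 stood at -0.19 ± 0.097 and Derl2 at -0.0698 ± 0.068, both with every severe library below the mild range. Derl3 was the least abundant gene of the arm, with 22, 19 and 22 counts in severe libraries 13, 14 and 15 and 28, 19 and 33 counts in mild libraries 7, 8 and 9. Its groups overlapped, so its log2 fold change of -0.52 ± 0.32 rests on few reads. Derl3 and Xbp1 are also high in plasma cells; 12 plasma cell markers in the table summed to 56.996 to 77.6 CPM in severe and 38.8 to 43.03 CPM in mild libraries, with Sdc1, which epithelia also express, at 31.04 ± 8.21 CPM in severe and 17.6 ± 0.867 CPM in mild kidneys. Of 8 tested plasma cell markers 3 (Sdc1, Ighm and Prdm1) lay above the mild range and 5 overlapped. The log2 fold changes of these 5 were -0.400 (Igj), 0.031 (Mzb1), 0.13 (Igha), 0.65 (Igkc) and 1.23 (Irf4). Over the 8 the median was 0.497, and 7 were above 0. The receptor gene Tnfrsf17 had 0 or 1 count in every library, and the part of plasma cells was not tested. Dnajb9 (ERdj4), a BiP partner that restrains IRE1, stood at -0.048 ± 0.078 and the derlin-binding Selk at -0.017 ± 0.0701, both with overlapping groups. The translocon subunit Sec61b stood at 0.041 ± 0.082 and Ssr1, a subunit of the translocon-associated TRAP complex, at 0.097 ± 0.081, and both overlapped between groups.

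Asns had the largest difference of the 36 genes. It encodes asparagine synthetase, an ATF4 target (chromosome 6, 7675169 to 7693254, minus strand). Asns stood at 6.16, 9.73 and 9.22 CPM in the severe libraries 13, 14 and 15, against 4.96, 4.31 and 5.15 CPM in the mild libraries 7, 8 and 9. Every severe library was above the mild range, library 13 closest to it, at a log2 fold change of 0.802 ± 0.21 (SE, n = 3 each; adjusted p = 0.103, edgeR). Asns passed with DESeq2 (adjusted p = 0.0272, where 6.28% of all genes were called higher) and without severe library 13 (log2 fold change 0.99, adjusted p = 0.00775, edgeR, where 13.8% were; 0.804% of all genes were called lower with DESeq2). Its level was low, at 4.15 CPM per kb in severe and 2.38 CPM per kb in mild kidneys, which ranked 33 of 36 in severe and 34 of 36 in mild kidneys.

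The genes of the kinase PERK and of ATF4, which acts upstream of Asns, had values near 0. Eif2ak3 (PERK) stood at 47.5, 55.6 and 47.5 CPM in the severe libraries 13, 14 and 15, against 50.9, 49.2 and 47.6 CPM in the mild libraries 7, 8 and 9. Library 14 was highest and the other 2 severe libraries lay just under the lowest mild one, at a log2 fold change of 0.028 ± 0.087 (adjusted p = 0.856, edgeR). Atf4 stood at 75.02, 90.6 and 76.5 CPM in the severe libraries 13, 14 and 15, against 79.6, 89.6 and 79.4 CPM in the mild libraries 7, 8 and 9. The groups overlapped (log2 fold change -0.038 ± 0.099, adjusted p = 0.827, edgeR), and ATF4 is controlled mainly in translation, which these counts do not measure.

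Ppp1r15a encodes GADD34, which returns the phosphatase to eIF2 and restarts translation. Ppp1r15a stood at 14.8, 15.9 and 15.1 CPM in the severe libraries 13, 14 and 15, against 14.5, 12.7 and 13.8 CPM in the mild libraries 7, 8 and 9. Every severe library was above the mild range by a small step, at a log2 fold change of 0.16 ± 0.103 (adjusted p = 0.349, edgeR). Ddit3, which encodes the cell death factor CHOP, stood at 12.4, 10.9 and 12.97 CPM in the severe libraries 13, 14 and 15, against 11.9, 11.2 and 11.4 CPM in the mild libraries 7, 8 and 9. Severe libraries lay on both sides of the mild ones (log2 fold change 0.074 ± 0.12, adjusted p = 0.705, edgeR), and the end of the gene shares 68 bases with Mars on the other strand. Chac1, a glutathione-degrading enzyme, stood at 1.63, 1.86 and 1.84 CPM in the severe libraries 13, 14 and 15, against 2.21, 1.02 and 1.65 CPM in the mild libraries 7, 8 and 9. The mild libraries spanned more than the severe ones (log2 fold change 0.14 ± 0.31, adjusted p = 0.795, edgeR), and the value turned to -0.11 without mild library 8. In 5 of the 6 PERK and ATF4 genes library 14 was the highest severe library.

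**Figure D3:**
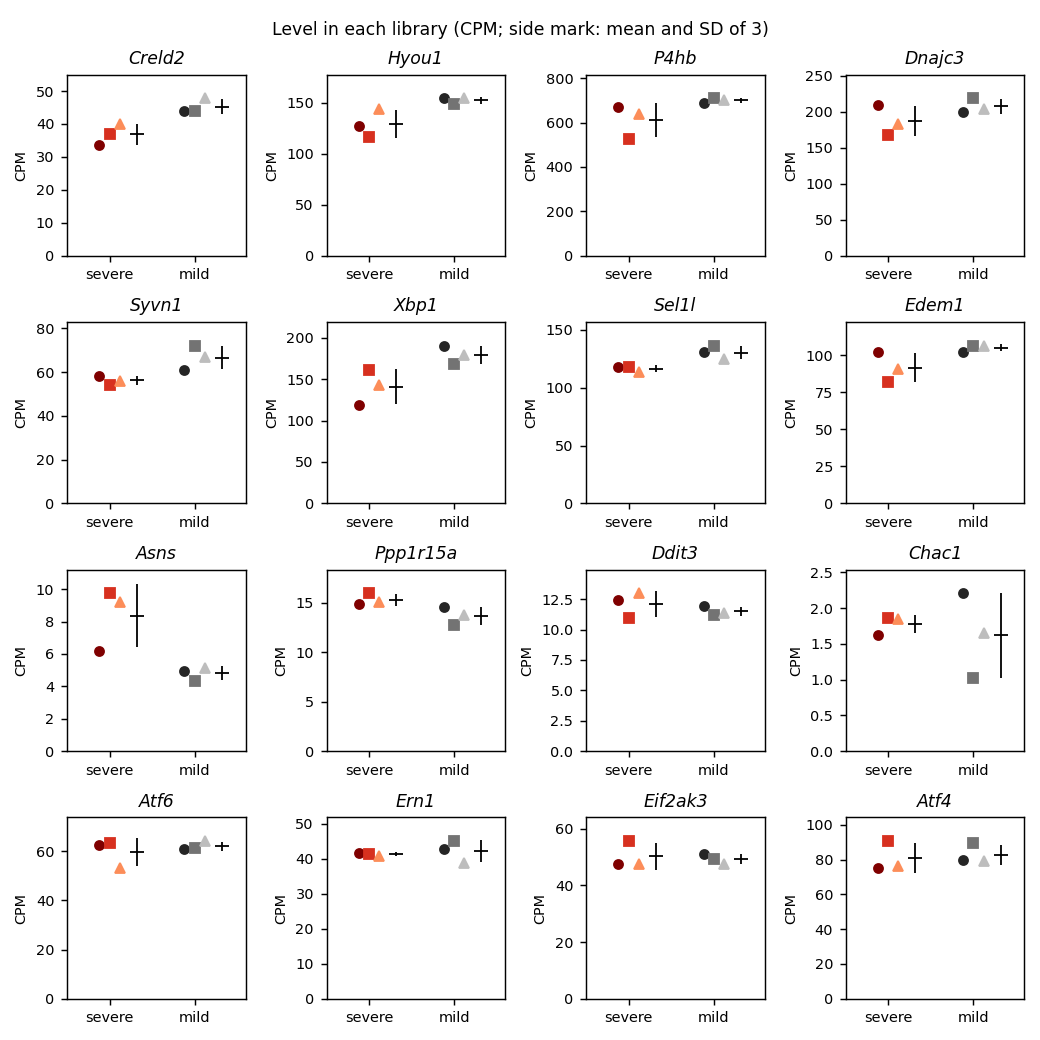
CPM in each library for the 4 genes with the smallest p of each arm and the 5 sensors and factors, severe on the left and mild on the right, with the mean and SD of 3 libraries beside the points and each axis starting at 0. Asns is the gene whose severe points stand clearly above the mild points, and Creld2, Hyou1, P4hb, Syvn1, Xbp1, Sel1l and Edem1 have all severe points below the mild ones.

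Per length, the most abundant genes after Calr were Hspa5 at 219.7 CPM per kb in severe and 242 CPM per kb in mild kidneys, P4hb at 214 CPM per kb in severe and 244 CPM per kb in mild kidneys and Pdia3 at 204 CPM per kb in severe and 204 CPM per kb in mild kidneys. Hspa5 and P4hb, whose order differs between the groups, were apart by less than the SD of P4hb in either group. Herpud1 was the highest of the XBP1 and degradation genes at 117 CPM per kb in severe and 138 CPM per kb in mild kidneys, and Atf4 of the PERK and ATF4 genes at 46.8 CPM per kb in severe and 48.1 CPM per kb in mild kidneys. At the low end Derl3 stood at 0.923 CPM per kb in severe and 1.33 CPM per kb in mild kidneys and Chac1 at 1.09 CPM per kb in severe and 0.992 CPM per kb in mild kidneys. The sensor genes were low beside the chaperones: Atf6 stood at 8.23 CPM per kb in severe and 8.56 CPM per kb in mild kidneys, Eif2ak3 at 11.1 CPM per kb in severe and 10.9 CPM per kb in mild kidneys and Ern1 at 5.94 CPM per kb in severe and 6.06 CPM per kb in mild kidneys.

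Other genes of the same pathway were read from lists that hold 160 symbols, of which 158 were in the table and 152 were tested. None of the 152 passed an adjusted p of 0.05 (edgeR; 31 higher, 20.4%, and 4 lower, 2.63%, at an unadjusted p under 0.05, beside 15.8% and 7.89% of all tested genes). Other folding enzymes and chaperones had a median log2 fold change of 0.00998, with 6 higher and 0 lower of 29 at an unadjusted p under 0.05. Kdelr3, a receptor that returns ER proteins from the Golgi, stood at 8.69 ± 4.42 CPM in severe and 2.68 ± 0.556 CPM in mild kidneys (log2 fold change 1.700 ± 0.38, adjusted p = 0.0873, edgeR). Fkbp14 and Fkbp7, prolyl isomerases of the ER, stood at log2 fold changes of 0.37 ± 0.097 and 0.99 ± 0.296. All 3 had every severe library above the mild range.

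The list of collagen folding genes of the ER had a median log2 fold change of 0.17. It also holds the transcription factor Creb3l1 and the export receptor Mia3. At an unadjusted p under 0.05, 6 of 12 were higher (50%), Creb3l1 among them, and 0 lower, beside 15.8% and 7.89% of all tested genes. Fkbp10, a collagen chaperone, stood at 14.8 ± 6.16 CPM in severe and 5.397 ± 0.887 CPM in mild kidneys (log2 fold change 1.46 ± 0.31, adjusted p = 0.0867, edgeR), Lepre1, a prolyl 3-hydroxylase, at 0.56 ± 0.13 and the lysyl hydroxylase Plod1 at 0.26 ± 0.077. All 10 matrix and fibroblast markers also lay above the mild range in the severe libraries, and the part of fibroblasts was not tested. P4hb, the subunit that the 36 genes share with this machinery, stood at -0.19.

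Other degradation genes had a median of -0.085. At an unadjusted p under 0.05, 0 of 20 were higher and 1 lower (5%), beside 15.8% and 7.89% of all tested genes. Ngly1, which removes sugars from extracted glycoproteins, stood at 50.2 ± 4.18 CPM in severe and 63.1 ± 0.692 CPM in mild kidneys (log2 fold change -0.33 ± 0.081, adjusted p = 0.0987, edgeR). Nploc4, a cofactor of the extracting ATPase VCP, stood at -0.14 ± 0.074. Both lay below the mild range in every severe library. Translocation, signal peptidase and glycosylation genes had a median of -0.029, with 1 higher and 1 lower of 27 at an unadjusted p under 0.05, the glycosylation subunit Ostc at 0.23 ± 0.086 and the signal peptidase subunit Sec11a at -0.23 ± 0.0704. A second signal peptidase subunit, Spcs3, stood at 0.17 ± 0.077.

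Other targets of ATF4 and CHOP supply amino acids, charge tRNAs and act in stress signalling. Their median over 34 genes was 0.084. At an unadjusted p under 0.05, 13 were higher (38.2%) and 1 lower (2.94%), beside 15.8% and 7.89% of all tested genes. The 13 were Atf3, Trib3, Ddit4, Atf5, Nupr1, Slc7a11, Slc7a5, Slc7a1, Mthfd2, Aldh18a1, Pycr1, Stc2 and Gdf15, and the lower one was Cth. Every severe library lay above the mild range in 11 genes (32.4%) and below it in 5 (14.7%), beside 17.9% and 16.1% of all tested genes. The 5 were Vldlr, Slc3a2, Shmt2, Cth and Aars. These names were given after their values were seen. Ddit4, an inhibitor of mTORC1, stood at 48.7 ± 8.54 CPM in severe and 27.04 ± 0.8199 CPM in mild kidneys (log2 fold change 0.85 ± 0.12, adjusted p = 0.0867, edgeR). Trib3, a tribbles pseudokinase that binds ATF4, stood at 2.504 ± 0.664 CPM in severe and 1.13 ± 0.212 CPM in mild kidneys (log2 fold change 1.14 ± 0.29, adjusted p = 0.102, edgeR). The cystine transporter Slc7a11 had 23, 19 and 11 counts in severe libraries 13, 14 and 15, against 0, 3 and 3 in mild libraries 7, 8 and 9. By contrast the 9 tRNA synthetase genes of the list, a subset taken after its values were seen, lay between -0.17 and 0.203, with 0 at an unadjusted p under 0.05.

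Other sensors, kinases and regulators had a median of -0.035, with 1 higher and 1 lower of 18 at an unadjusted p under 0.05. The higher was Eif2ak2 (PKR), an interferon-induced kinase of eIF2, at 0.57 ± 0.15 (adjusted p = 0.1, edgeR). The lower was Ppp1r15b, the constitutive counterpart of Ppp1r15a, at -0.199 ± 0.083. Eif2ak1 and Eif2ak4, also kinases of eIF2, stood at -0.099 ± 0.096 and 0.052 ± 0.16, both with overlapping groups. Eif2b5, a subunit of the exchange factor of eIF2, stood at -0.14 ± 0.068. Cell death genes linked to ER stress had a median of 0.22. At an unadjusted p under 0.05, 4 of 12 were higher (33.3%) and 0 lower, beside 15.8% and 7.89% of all tested genes. The BH3-only genes Bcl2l11 and Bbc3 stood at 0.67 ± 0.14 and 0.83 ± 0.21, and Casp12, a caspase of the ER membrane, at 1.78 ± 0.42. All 3 lay above the mild range in every severe library, while the groups of Ddit3 overlapped.

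**Figure D4:**
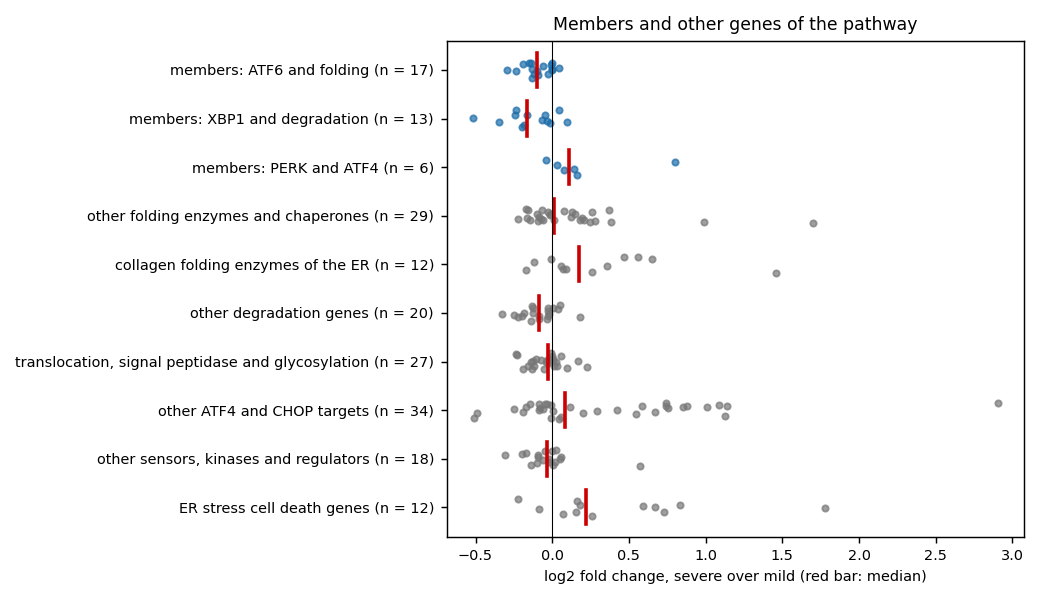
Each point is 1 tested gene, placed by its log2 fold change of severe over mild, for the 3 arms of the 36 genes in blue and 7 lists of other pathway genes in grey, with the median as a red bar. The medians of the arms are -0.096, -0.16 and 0.11, and the wide right-hand tails are in the collagen folding, ATF4 target, other folding and cell death lists.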

How the data were processed

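The authors deposited raw read counts per Ensembl gene, with a gene length. Per the submitters' processing notes, Bowtie2 2.2.3, TopHat2 2.0.12, HTSeq 0.6.1 and mm10 were used; nothing used here states strand setting, counting mode or annotation release. Column names give the ischaemia time but match no sample title, so each column is an unpaired replicate of its group; 0 columns of sample values were left out. After filterByExpr and TMM scaling, edgeR 4.0.16 (R 4.3.3) gave a robust quasi-likelihood F test, adjusted over all 14883 tested genes. The SE is the log2 fold change over the root of F. CPM uses TMM library sizes. DESeq2 1.42.0 and limma 3.58.1 were alternatives, and the fits were tested on simulated data. No library was a repeat of another: chi-square over degrees of freedom was 14.2 to 70.04 between severe and 3.67 to 5.34 between mild libraries. RefSeq windows were matched for 32 genes, Ero1l, Ero1lb and Selk through newer symbols. Of the 32, 29 shared bases at a start with a GENCODE transcript of the gene. Transcripts were looked up by the symbols of the count table, so for Ero1l, Ero1lb and Selk the check may have found none. Spans of 9 of the 36 genes overlap another gene in the table. The genes, arms and lists were chosen with earlier results of these data known. Named genes are the 4 with the smallest p of each arm, the sensors and factors, and 3 per pathway list, of which 1 is not reported here; others named were chosen after their values were seen.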

Additional observations from a re-analysis of the deposited data

How the results depend on the processing

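The number of genes called, 2 in all, was 1 with library totals, 146 without a filter, 1093 with DESeq2, 5041 with limma-voom with quality weights and 616 at a threshold of 0.10, and lay between 0 and 3269 with 1 library left out (3269 without severe library 13, 501 without severe library 14, 1 without severe library 15 and 0 without any 1 mild library). Of the 36 genes, 0 were called in the full edgeR fit, 1 with DESeq2 (Asns) and 8 with quality weights (Asns higher; Xbp1, Herpud1, Syvn1, Sel1l, Edem1, Atf6 and Creld2 lower), and between 0 and 2 with 1 library left out. With quality weights 33.9% of all genes were called. Genes of the 36 lower at an unadjusted p under 0.05 numbered 4 in the full edgeR fit, beside 1175 of all 14883 tested genes. They numbered 0 with library totals (361 of all 14883), 5 with DESeq2 (1393 of 15427) and 9 with quality weights (3230 of 14883). Without severe libraries 13, 14 and 15 they numbered 4, 6 and 2, beside 2627 of 15196, 1353 of 15030 and 778 of 15071. Without mild libraries 7, 8 and 9 they numbered 2, 3 and 1, beside 440 of 15265, 458 of 15243 and 465 of 15263. With library totals 0 of the 36 genes lay wholly below the mild range, against 11 with TMM, and the medians of the arms were 0.069, 0.0072 and 0.27, with that of all genes at 0.17. With 1 library left out they lay between -0.14 and -0.057 for ATF6 and folding, -0.18 and -0.11 for XBP1 and degradation and 0.048 and 0.16 for PERK and ATF4. Of the 36 fold changes 14 kept their sign in every setting and 22 did not, with sizes of at most 0.17 where turned; beyond the scaling, the cause was not tested. With upper-quartile scaling Hsp90b1 turned to 0.024, Pdia3 0.0297, Pdia4 0.032, Pdia6 0.028, Ero1l 0.0072, Ern1 0.0012 and Selk 0.015. With library totals Hspa5 turned to 0.036, Hsp90b1 0.17, Calr 0.074, Canx 0.069, Pdia3 0.17, Pdia4 0.17, Pdia6 0.17, Dnajb11 0.041, Dnajc3 0.0102, Manf 0.044, Ero1l 0.14, Ero1lb 0.035, Atf6 0.11, Ern1 0.14, Dnajb9 0.13, Sel1l 0.0072, Derl2 0.097, Selk 0.15 and Atf4 0.14. With a filter of 1 CPM in 3 libraries Pdia3 turned to 0.00062 and Pdia4 0.00204. With quality weights Hsp90b1 turned to 0.092, Pdia3 0.059, Pdia4 0.12, Pdia6 0.073, Selk 0.013 and Eif2ak3 -0.043. With 1 library left out, Hsp90b1 lay between -0.0803 and 0.077, Pdia3 -0.043 and 0.033, Pdia4 -0.086 and 0.085, Pdia6 -0.055 and 0.047, Sdf2l1 -0.022 and 0.12, Ero1l -0.083 and 0.061, Atf6 -0.102 and 0.018, Ern1 -0.0801 and 0.026, Dnajb9 -0.092 and 0.0075, Selk -0.036 and 0.018, Eif2ak3 -0.052 and 0.075, Atf4 -0.13 and 0.029, and Chac1 -0.11 and 0.43. No paired analysis was possible because the groups share no replicate numbers. Depth limits Derl3 and Chac1, with 17 to 33 counts per library.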
